A study of Mus musculus with 16 samples.

Results

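The 10 genes described here encode the proteins that neutrophils carry in their granules and the calcium-binding alarmins of their cytosol. They were chosen by name and read from the gene column of the count files, which all hold the same 22609 gene entries, and all 10 were found. They comprise the alarmin pair S100a8 and S100a9, 6 genes of late (specific and gelatinase) granules (Lcn2, Ngp, Camp, Ltf, Mmp8 and Mmp9) and 2 genes of early (azurophil) granules (Mpo and Prtn3). Neutrophils build their granules in sequence while they mature in the bone marrow. Transcripts of azurophil granule enzymes are made at the promyelocyte stage and shut off later, those of specific granules follow at the myelocyte stage, and those of gelatinase granules come last. Mature neutrophils in blood and tissue are known to keep S100a8 and S100a9 transcripts and little of the azurophil ones. In dorsal root ganglia, which hold the cell bodies of sensory neurons, neutrophils are known as cells that can enter after nerve injury or inflammation.

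The libraries came from cells of L3-L5 ganglia of male mice of 8 to 16 weeks. All mice carried floxed alleles of Ltbr, the lymphotoxin-beta receptor gene. Those labelled CKO also carried Cre driven by Nav1.8, a sodium channel of nociceptors, so deletion is limited to cells that use that promoter, and those labelled fl/fl had the floxed alleles without Cre. Per the design text, mice received 3 intraperitoneal injections of paclitaxel (PTX, a microtubule-stabilising chemotherapy drug) at 6 mg/kg, 2 days apart, or vehicle. Wheat germ agglutinin with a fluorescent dye, a tracer taken up by nerve endings, was given into the paw at 16 days from the final dose, and tracer-positive neurons were sorted by flow cytometry at 18 days. The groups were PTX CKO, PTX fl/fl, vehicle CKO and vehicle fl/fl, with 4 libraries each by the labels, while the design text states 3. The vehicle libraries have the treatment label Water, and the treatment text attached to them describes PTX. No label ties a library to its own animal, so the p-values rest on a spread between libraries that could be technical. Titles carry dates, read as month and day: replicates 1 and 2 of each PTX group are dated 24 September and replicates 3 and 4 are dated 25 September, and those of each vehicle group 1 October and 2 October. The labels do not say what the dates mark. Date and treatment cannot be told apart, while genotype is balanced over the dates.

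Gene counts per library summed to between 7906504 and 11668007, spread over 12136 to 15418 detected genes. Levels are CPM, a gene's count relative to the library size scaled by TMM, a normalization that assumes most genes are alike. Ltbr was at 5.88 to 28.4 CPM in the PTX libraries labelled CKO and 6.06 to 15.6 CPM in those labelled fl/fl, and at 32.3 to 99.0 CPM in vehicle libraries labelled CKO and 42.4 to 51.4 CPM in those labelled fl/fl, so the counts give no check of the genotype labels, which were followed. The 4 PTX libraries of 24 September stood apart in the genes described here, and so did PTX fl/fl replicate 4 in the early granule genes. Sensory neuron markers were present in every library, and their sum over 10 genes ran from 6346 to 9387 CPM in the PTX libraries of 25 September, 12202 to 17272 CPM in those of 24 September and 852 to 4346 CPM in the vehicle libraries.

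Promoter windows of members are shown because the genes moved together. They run from 250 bases before to 50 after the RefSeq gene start (GRCm38.p6), 5′ to 3′ on the gene's strand. Capitals mark matches on either strand to TTNNGNAA, a form of the half-site pair bound by C/EBP factors of granulocyte development, or to GAGGAA, the core bound by PU.1 of myeloid cells. The matches to the 2 motifs do not overlap in these windows. They are the alarmin pair, a late granule gene and an early one:
S100a8, chr3:90668821-90669120, plus strand: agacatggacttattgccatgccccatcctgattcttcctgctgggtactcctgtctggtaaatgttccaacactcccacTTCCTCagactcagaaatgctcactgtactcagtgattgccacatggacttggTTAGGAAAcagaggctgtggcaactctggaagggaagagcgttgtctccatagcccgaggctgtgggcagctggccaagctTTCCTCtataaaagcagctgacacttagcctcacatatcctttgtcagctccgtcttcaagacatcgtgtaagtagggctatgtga
S100a9, chr3:90695672-90695971, minus strand: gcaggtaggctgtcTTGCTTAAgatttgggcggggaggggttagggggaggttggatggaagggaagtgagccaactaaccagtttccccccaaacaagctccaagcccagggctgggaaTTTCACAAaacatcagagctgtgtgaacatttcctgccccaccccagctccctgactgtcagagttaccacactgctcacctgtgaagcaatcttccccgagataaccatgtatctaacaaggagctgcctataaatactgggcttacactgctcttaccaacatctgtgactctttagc
Ngp, chr9:110419558-110419857, plus strand: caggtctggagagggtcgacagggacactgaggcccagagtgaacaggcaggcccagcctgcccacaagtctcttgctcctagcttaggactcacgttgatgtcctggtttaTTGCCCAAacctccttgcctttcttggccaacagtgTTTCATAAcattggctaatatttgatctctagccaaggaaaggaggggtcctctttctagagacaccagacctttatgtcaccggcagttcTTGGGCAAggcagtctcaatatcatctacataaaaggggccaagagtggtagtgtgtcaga
Mpo, chr11:87793534-87793833, plus strand: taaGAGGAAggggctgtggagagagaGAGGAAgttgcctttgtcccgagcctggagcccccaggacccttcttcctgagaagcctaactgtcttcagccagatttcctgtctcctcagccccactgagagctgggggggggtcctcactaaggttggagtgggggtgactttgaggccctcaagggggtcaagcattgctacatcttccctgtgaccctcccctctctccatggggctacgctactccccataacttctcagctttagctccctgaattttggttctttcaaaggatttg
S100a8 held 1 match to TTNNGNAA and 2 to GAGGAA, S100a9 held 2 and 0, Ngp held 3 and 0, and Mpo held 0 and 2. Of the 9 member windows, 6 held TTNNGNAA and 6 held GAGGAA, while 40.7% of 32851 RefSeq windows of the same length held the first and 28.3% the second. TTNNGNAA was found in S100a8, S100a9, Lcn2, Ngp, Ltf and Mmp8, and not in Camp, Mpo or Prtn3. GAGGAA was found in S100a8, Lcn2, Ltf, Mmp8, Mpo and Prtn3. Mmp9 is named only. A match is a description of letters and not a measured binding site. S100a8 and S100a9 lie on chromosome 3, Ngp, Camp, Ltf and Mmp8 on chromosome 9, Lcn2 and Mmp9 on chromosome 2, Prtn3 on chromosome 10 and Mpo on chromosome 11.

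Together the 10 genes took a large and variable part of the sequenced RNA. They held 4.98 to 11.2% of gene counts in the PTX libraries of 25 September, 0.0296 to 0.991% in those of 24 September and 6.95 to 18.0% in the vehicle libraries. The lowest share was that of PTX CKO replicate 1 (0.0296%, 95% interval 0.0285 to 0.0308%) and the highest that of vehicle CKO replicate 4 (18.0%, 95% interval 17.96 to 18.00%). All 4 PTX libraries of 24 September were below every other library. In these bulk samples, fewer neutrophils and less of these transcripts per neutrophil cannot be told apart.

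Among the PTX libraries, 9 of the 10 genes rose on 25 September relative to 24 September, by log2 fold changes of 5.16 to 7.01 (edgeR adjusted p 0.00121 to 0.0498). The background is that 6.21% of the 14200 genes tested were called higher in this comparison and 1.19% lower. The member left out of the call was Prtn3. The median log2 fold change of the 10 genes was 5.38, and that of all genes tested was -0.15. For 8 of the 10 genes every library of 25 September was above every one of 24 September, which held for 9.75% of all genes tested. The 2 that overlapped were Mpo and Prtn3. DESeq2 called all 10 higher (background 9.8%), limma-voom with quality weights 9 (10.8%) and without them 8 (4.16%).

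S100a8, whose protein pairs with that of S100a9 as calprotectin, was at 37092 and 19708 CPM in CKO and 38191 and 19563 CPM in fl/fl on 25 September, against 102 and 375 CPM in CKO and 1838 and 3499 CPM in fl/fl on 24 September. In vehicle libraries it was at 20711, 45302, 81805 and 82152 CPM in CKO and 80674, 65511, 25048 and 30395 CPM in fl/fl, replicates 1 to 4. The dates of PTX do not overlap, the later one reaches into the vehicle range, and the lowest values are both CKO. The log2 fold change between the PTX dates was 5.16 ± 0.87 (SE, n = 4 each, edgeR adjusted p = 0.00162). S100a9 went along with it: it was at 21873 and 12608 CPM in CKO and 24190 and 12061 CPM in fl/fl on 25 September, against 65.2 and 223 CPM in CKO and 1245 and 2153 CPM in fl/fl on 24 September. Its log2 fold change was 5.16 ± 0.85 (SE, edgeR adjusted p = 0.00131), and vehicle libraries held 15629 to 48383 CPM.

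The late granule genes moved by similar amounts. Ngp, a cathelin-family protein of neutrophil granules, was at 23260 and 12392 CPM in CKO and 14666 and 5690 CPM in fl/fl on 25 September, against 38.9 and 92.1 CPM in CKO and 808 and 1691 CPM in fl/fl on 24 September. Its log2 fold change was 5.55 ± 1.10 (SE, edgeR adjusted p = 0.00474). The groups did not overlap, and the vehicle libraries lay between 12008 and 42004 CPM. Ltf, the iron-binding lactoferrin, was at 11852 and 6246 CPM in CKO and 7444 and 2969 CPM in fl/fl on 25 September, against 14.7 and 28.8 CPM in CKO and 421 and 838 CPM in fl/fl on 24 September. Its log2 fold change was 5.86 ± 1.2 (SE, edgeR adjusted p = 0.00605).

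The other late granule genes differed between the PTX dates without overlap. Camp, the precursor of the antimicrobial peptide CRAMP, ran from 955 to 3396 CPM on 25 September and from 10.7 to 371 CPM on 24 September, with 2317 to 9263 CPM in vehicle libraries. Lcn2, which binds bacterial siderophores, ran from 2136 to 6229 CPM on 25 September and from 10.8 to 500 CPM on 24 September, with 3890 to 11279 CPM in vehicle libraries. The collagenase gene Mmp8 ran from 1438 to 2154 CPM on 25 September and from 3.35 to 161 CPM on 24 September, with 949 to 3579 CPM in vehicle libraries. The gelatinase gene Mmp9 ran from 1857 to 3058 CPM on 25 September and from 8.37 to 224 CPM on 24 September, with 1266 to 4181 CPM in vehicle libraries. In each of these 4 genes the 2 lowest libraries of all 16 were PTX CKO replicates 1 and 2. Their log2 fold changes between the PTX dates were 5.23, 5.24, 5.42 and 5.34 for Camp, Lcn2, Mmp8 and Mmp9 in that order, all called. Single libraries moved the folds of the alarmin and late granule genes by more than 1.5 times, with the lowest value of each gene without PTX CKO replicate 1 and the highest without PTX fl/fl replicate 4. These were 4.44 and 7.30 for Ltf, 4.33 and 6.77 for Ngp, 4.38 and 5.88 for S100a8, 4.37 and 5.88 for S100a9, 4.31 and 6.23 for Camp, 4.24 and 6.19 for Lcn2, 4.48 and 6.22 for Mmp8, and 4.42 and 6.18 for Mmp9. Leaving out PTX CKO replicate 2 or PTX fl/fl replicate 3 also moved the late granule genes by more than 1.5 times, within those values, and leaving out PTX fl/fl replicate 2 did so for Camp.

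The early granule genes were less even on 25 September. Mpo, the peroxidase of azurophil granules, was at 2600 and 363 CPM in CKO and 358 and 0.305 CPM in fl/fl on 25 September, against 0.886 and 0.475 CPM in CKO and 5.81 and 21.4 CPM in fl/fl on 24 September. In vehicle libraries it was at 675, 260, 823 and 538 CPM in CKO and 1239, 1245, 353 and 265 CPM in fl/fl, replicates 1 to 4. Replicate 4 of PTX fl/fl was the lowest of all 16 libraries, and PTX CKO replicate 3 was the highest. The lowest rank rests on 3 counts, against 9 and 5 in PTX CKO replicates 1 and 2, too few to order these libraries. The log2 fold change between PTX dates was 7.01 ± 2.03 (SE, edgeR adjusted p = 0.0498). This call was lost when PTX fl/fl replicate 1 or 3, PTX CKO replicate 1, 2 or 4, or any 1 of the 8 vehicle libraries was left out, with log2 fold changes of 5.23 to 8.95, and it was kept without PTX fl/fl replicate 4, at 9.08.

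Prtn3, the azurophil serine protease proteinase 3, was at 269 and 55.1 CPM in CKO and 45.5 and 0.102 CPM in fl/fl on 25 September, against 0 and 0.0949 CPM in CKO and 0.166 and 4.75 CPM in fl/fl on 24 September. Its vehicle libraries lay between 31.3 and 176 CPM. The low libraries rest on few reads: 0 and 1 counts in PTX CKO replicates 1 and 2, and 2 and 1 counts in PTX fl/fl replicates 1 and 4. The 0 allows up to 0.295 CPM (3 counts, counting error only). The difference between the PTX dates was 6.12 ± 1.89 on the log2 scale (SE, edgeR adjusted p = 0.0678), and it was called without PTX fl/fl replicate 2 (9.66) and without PTX fl/fl replicate 4 (7.95).

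**Figure D1:**
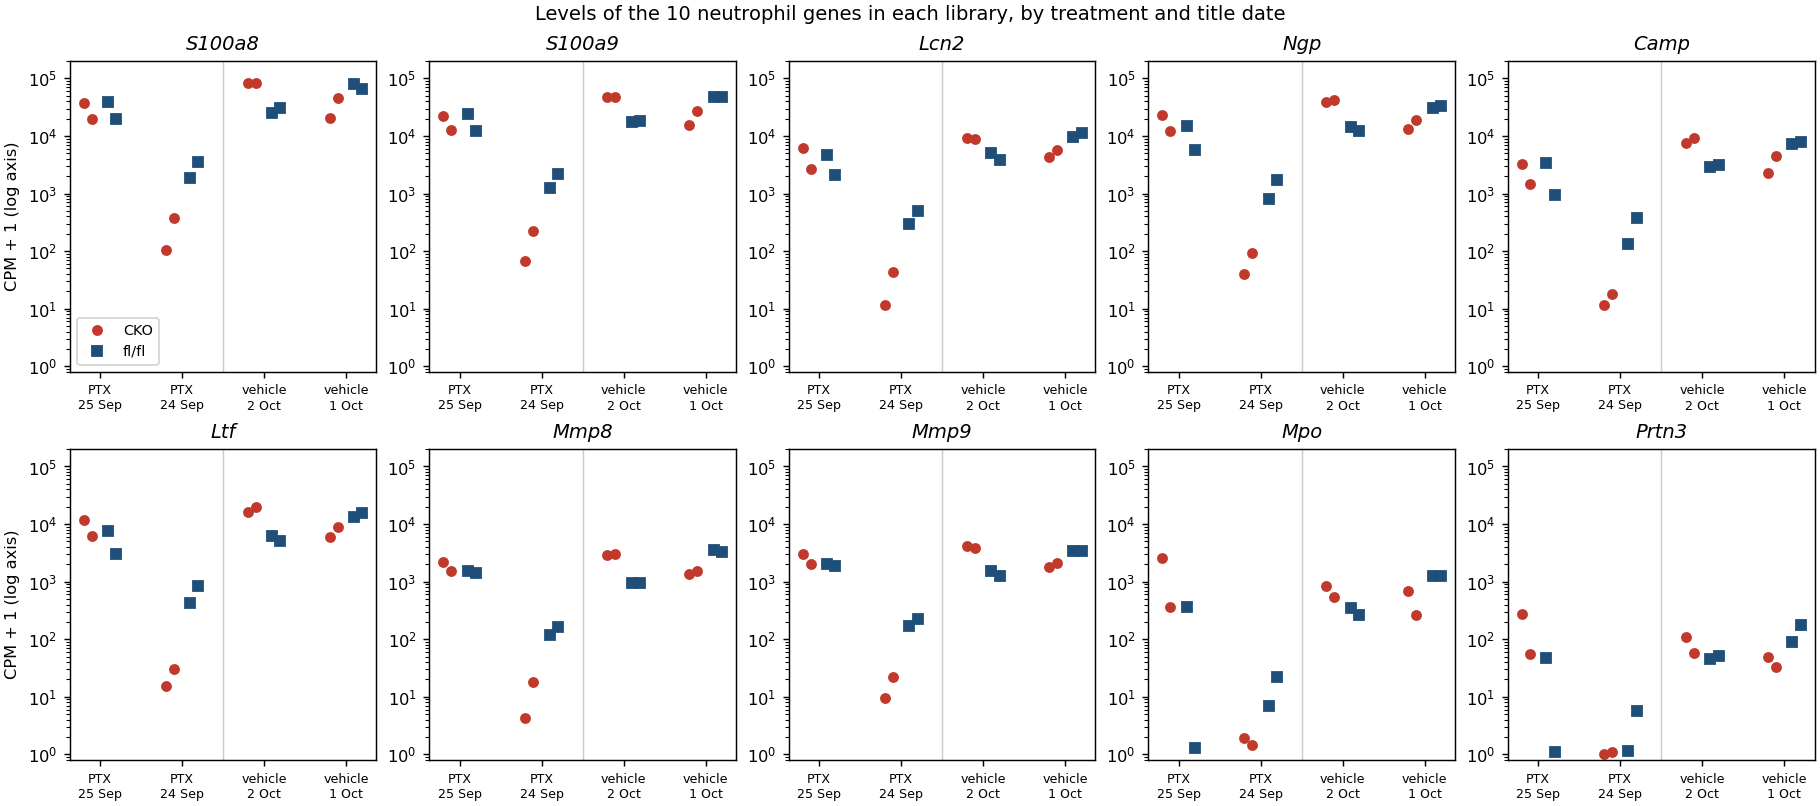
CPM plus 1 (log axis) of each of the 10 genes in all 16 libraries, by treatment and title date, with CKO as circles and fl/fl as squares. The PTX libraries of 24 September lie below all others in the alarmin and late granule genes, and in Mpo and Prtn3 a single fl/fl library of 25 September lies as low as they do.

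The ratio of early to late granule counts within a library does not depend on its size. It was taken as Mpo plus Prtn3 counts per 1000 counts of the 6 late granule genes and is read only between libraries, since transcript length enters it. It was 57.6 and 15.9 in PTX CKO and 11.96 and 0.0270 in PTX fl/fl on 25 September, against 10.2 and 2.59 in PTX CKO and 3.08 and 6.90 in PTX fl/fl on 24 September. Vehicle libraries ran from 6.86 to 24.9, with medians of 9.40 in CKO and 15.96 in fl/fl. Thus 1 PTX library was above the vehicle range and 3 were below it, and 2 of those 3 were dated 24 September. Counting error is wide in PTX CKO replicates 1 and 2, which hold 9 and 6 early counts (95% intervals 4.65 to 19.5 and 0.951 to 5.65 per 1000).

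PTX fl/fl replicate 4 held 4 early counts beside 148101 late granule counts, a ratio of 0.0270 per 1000 (95% interval 0.00736 to 0.0692). PTX fl/fl replicate 3, of the same date, held 3953 early counts beside 330533 late ones. Other genes of early granulocytes were split in replicate 4. Elane, the azurophil neutrophil elastase, had 1 count there and 1258 in replicate 3. Fcnb, a ficolin of granulocyte precursors, had 0 against 895 counts. Prss57, a further azurophil protease named here outside the rule for list genes, had 0 against 121. Ctsg, the azurophil cathepsin G, had 116 counts against 534, and Myb, a transcription factor of progenitors, had 173 against 180. So Elane and Fcnb were nearly or wholly unread there, as Mpo and Prtn3 were, while Ctsg and Myb were read. The list of further azurophil and promyelocyte genes summed to 701 CPM in replicate 4, of which Hp gave 640 CPM. Replicate 4 had 12347 detected genes and replicate 3 had 14387. PTX CKO replicate 4, of the same date, had 12136 detected genes and 3046 Mpo counts. The part of library quality in this split was not tested.

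As a log2 ratio with 1 count added to each sum, early against late averaged -6.23 ± 1.75 in PTX CKO and -6.52 ± 0.87 in vehicle CKO (SD, n = 4 each), a difference of 0.29, which was -0.42 without PTX CKO replicate 3. It averaged -9.18 ± 3.86 in PTX fl/fl and -6.01 ± 0.38 in vehicle fl/fl (SD, n = 4 each), a difference of -3.17, which was -1.28 without PTX fl/fl replicate 4. It averaged -7.83 ± 4.78 on 25 September and -7.58 ± 0.93 on 24 September under PTX (SD, n = 4 each), a difference of -0.25, which was 2.09 without PTX fl/fl replicate 4. The sign between the PTX dates also turned without PTX CKO replicate 1 (0.12) and with Elane and Ctsg counted as early genes (0.65). Between the vehicle dates the difference was -0.60. These are descriptions with no test.

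**Figure D2:**
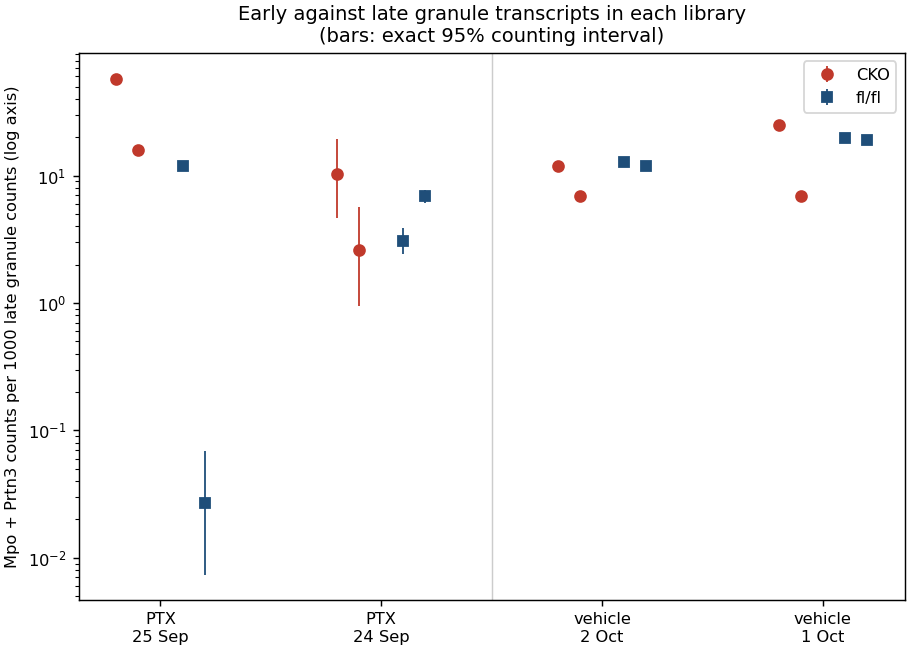
Mpo plus Prtn3 counts per 1000 late granule counts (log axis) in each library, by treatment and title date, with CKO as circles and fl/fl as squares and exact 95% counting intervals as bars. PTX fl/fl replicate 4, at 0.0270, lies below the 15 other libraries, which run from 2.59 to 57.6.

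The alarmin pair kept closer to the late granule genes. Its counts were 1.18 to 2.73 times those of the 6 late granule genes in every library. Within the late genes, Ngp gave 37.8 to 49.1% of the counts, Ltf 13.1 to 23.8% and Mmp9 4.34 to 12.3%. The lowest Ngp and highest Mmp9 shares were both those of PTX fl/fl replicate 4. Across the 16 libraries the 28 pairs among the alarmin and late granule genes had Pearson correlations of 0.973 to 0.999 on log2(CPM + 1), Mpo with Prtn3 0.987, and the 16 pairs of an early gene with one of the others 0.797 to 0.863. The points share library depth and the date difference, so these are descriptions.

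Of 11600 other genes with at least 5 CPM on average, Ifitm6, Arhgdib, Ly6c2, 1100001G20Rik and Hp were the 5 most like the mean pattern of the 6 late granule genes (r = 0.997 to 0.998 over 16 libraries). Hp, haptoglobin, averaged 967 CPM on 25 September, 43.1 CPM on 24 September under PTX and 1393 CPM in vehicle libraries. Most like Mpo and Prtn3 were Elane (r = 0.993), Fcnb (0.970), Prok2 (0.960), Mcm7 (0.953) and Igsf6 (0.952). These genes were picked over all 16 libraries, so their levels in any of them are no separate evidence.

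The treatment comparison sets PTX against vehicle libraries within each genotype, and treatment and title date cannot be told apart in it. With all libraries it called none of the 10 genes. In CKO, the members differed by log2 fold changes of -2.30 to 0.40 between PTX and vehicle (median -1.57, all genes 0.02; edgeR adjusted p 0.36 to 0.938), with Mpo at 0.37 ± 1.78 and Prtn3 at 0.40 ± 1.69 (SE) on the positive side. The background is 2.22% of genes called higher and 0.359% lower. In fl/fl all 10 were negative, from -3.01 to -1.18 (median -1.86, all genes -0.01; edgeR adjusted p 0.412 to 0.655), with Mpo at -3.01 ± 1.92 and Prtn3 at -2.83 ± 1.81 (SE). The background there is 3.2% called higher and 1.76% lower. At an unadjusted edgeR p under 0.05 the count of members was 0 in both genotypes, where 19.7% of all genes in CKO and 19.5% in fl/fl passed. DESeq2 also called 0 in both (background 3.19% lower in CKO and 4.76% in fl/fl). In neither genotype did the levels of any member separate between treatments, where 4.54% of genes in CKO and 7.8% in fl/fl were lower without overlap, and the SEs of 1.24 to 1.92 leave wide room for a difference.

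What is averaged there are PTX dates that differ. Against the vehicle libraries of their genotype, the PTX libraries of 25 September averaged 0.494 times as much S100a8 in CKO and 0.573 times in fl/fl, and Mmp9 0.856 times in CKO and 0.799 times in fl/fl. Those of 24 September averaged 0.00416 times as much S100a8 in CKO and 0.0529 times in fl/fl. Mpo on 25 September was at 2.58 times the vehicle mean in CKO and 0.231 times in fl/fl, and Prtn3 at 2.64 and 0.254 times. The CKO ratios rest on replicate 3: replicate 4, at 363 CPM of Mpo and 55.1 CPM of Prtn3, was below the vehicle CKO means of 574 and 61.4 CPM. No PTX library of 24 September lay inside the vehicle range of its genotype for any of the 10 genes. The share of all genes for which this held was not counted. Fitted without the later PTX date, all 10 were called lower in CKO (log2 -9.98 to -7.65, edgeR adjusted p 0.000181 to 0.00171, background 8.47% lower) and all 10 in fl/fl (log2 -5.82 to -3.60, edgeR adjusted p 0.00449 to 0.0137, background 7.92% lower). Fitted without the earlier PTX date, none was called in CKO (log2 -1.32 to 1.39, edgeR adjusted p 0.624 to 0.948) or in fl/fl (log2 -2.12 to -0.34, edgeR adjusted p 0.573 to 0.911), and the background was 0.0% lower in CKO and 0.0204% in fl/fl. Each of these fits keeps 2 PTX libraries a genotype, of a single title date, so its p-values do not cover the spread between PTX dates. The treatment result thus rests on which PTX date is used.

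With sample quality weights, limma-voom called all 10 lower in both genotypes, where 10.1% of genes in CKO and 18.4% in fl/fl were called lower. The weights of the PTX libraries of 25 September were 0.759 and 0.298 in CKO and 0.829 and 0.246 in fl/fl, against 1.72 and 1.83 in CKO and 4.40 and 8.68 in fl/fl on 24 September, and without weights limma-voom called none in either genotype (background 1.43% lower in CKO and 3.13% in fl/fl). With title date as a covariate, edgeR called 8 of the 10 lower in CKO, all but Mpo and Prtn3 (background 6.64% lower), and none in fl/fl (4.99% lower).

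**Figure D3:**
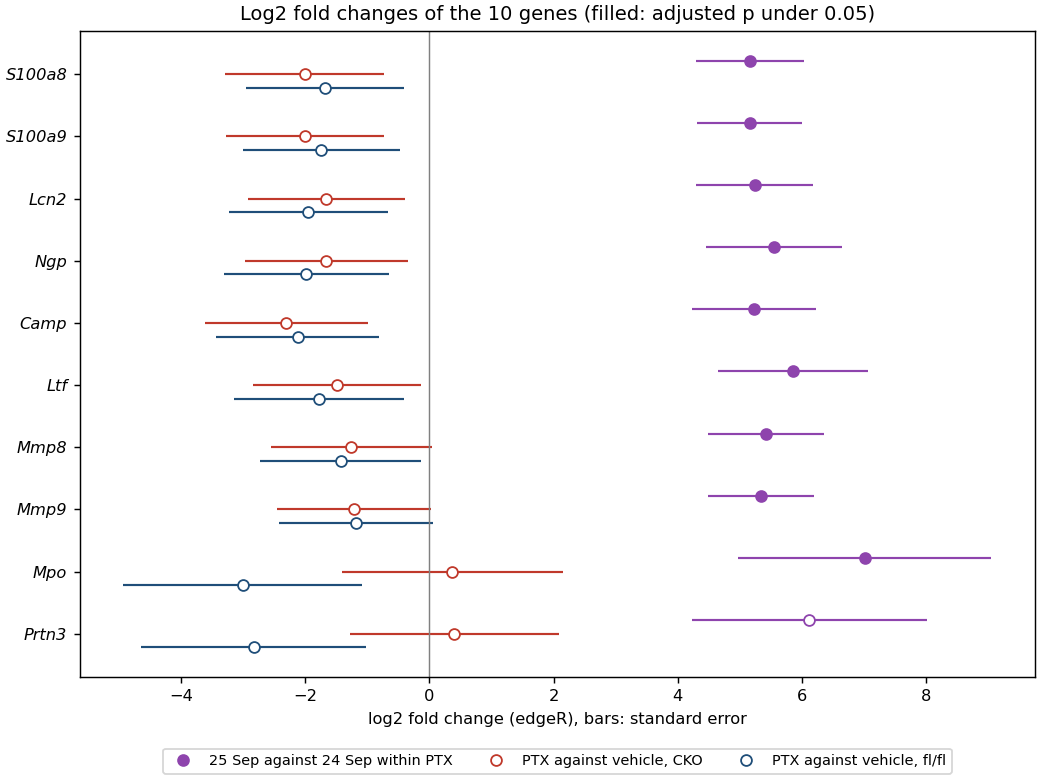
Log2 fold changes of the 10 genes with their standard errors (edgeR), for 25 September against 24 September within PTX and for PTX against vehicle in CKO and in fl/fl; filled points have an adjusted p under 0.05. The date differences lie between 5.16 and 7.01 and the treatment differences between -3.01 and 0.40, none of the treatment differences called.

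Between genotypes none of the 10 genes was called. Under PTX, CKO against fl/fl gave log2 differences of -0.19 to 0.65 for the alarmin and late granule genes, 2.94 ± 1.91 for Mpo and 2.68 ± 1.8 for Prtn3 (SE, edgeR adjusted p of 1 for each). The background is 0 of 14200 genes called (266 at an unadjusted p under 0.05, and 10 by DESeq2). Under vehicle the members lay between -0.55 and 0.35 (background 0.0211% called), and the interaction of genotype and treatment had a median of 0.23 over the members with 0 called (background 0.00704%). None of the 10 had an unadjusted edgeR p under 0.05 in these 3 comparisons. Of all genes, 1.87% did under PTX, 4.61% under vehicle and 3.35% for the interaction. Without the later PTX date, the 10 genes were lower in CKO by log2 differences of 3.49 to 5.35 in size, with Ltf alone called (edgeR adjusted p = 0.0449, background 0.094% lower). Without the earlier PTX date they lay between -0.05 and 3.07, with 0 called.

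Genotype differed with date in the levels. On 24 September CKO held 0.0193 to 0.0895 times the mean fl/fl level of each member, with both CKO libraries below both fl/fl libraries for all 10 genes. On 25 September CKO held 0.951 to 1.75 times the fl/fl level of the alarmin and late granule genes and 8.27 and 7.11 times that of Mpo and Prtn3. The last 2 ratios rest on the high CKO replicate 3 and the low fl/fl replicate 4. CKO replicate 4 and fl/fl replicate 3 were close, at 363 against 358 CPM of Mpo and 55.1 against 45.5 CPM of Prtn3. Under vehicle, CKO held 1.76 to 3.13 times the fl/fl level on 2 October and 0.301 to 0.578 times on 1 October. The genotypes did not overlap on either vehicle date for any member. How many of all genes split in this way, at 2 libraries against 2, was not counted for any of the dates. The 8 alarmin and late granule genes correlated at 0.973 to 0.999, so the members are not 10 separate observations. A test of how the genotype difference changed with date was added after the data were seen: 5 of the 10 passed within PTX, where 0.507% of genes did, and Mmp9 alone within vehicle, where 1.14% did. Between the vehicle dates as such, the members differed by log2 -0.73 to 0.03 (median -0.14), and 0 were called, where 0.0493% of genes were.

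Other genes of neutrophils, read from lists made with earlier results known, followed the same dates of PTX. All 6 listed genes of the NADPH oxidase, the enzyme of the oxidative burst, were called higher on 25 September (median log2 5.20): Cyba averaged 295 CPM against 16.6 CPM and Rac2 930 CPM against 44.3 CPM. The shares of all genes called in this comparison are 6.21% higher and 1.19% lower. Of 14 surface and effector genes of mature neutrophils 13 were called higher and 0 lower, among them the chemokine receptor Cxcr2 (log2 5.50 ± 0.77) and the formyl peptide receptors Fpr1 (5.14 ± 0.73) and Fpr2 (5.44 ± 0.80, SE). The exception was Mmp25, at -0.01. None of these 20 genes was called between PTX and vehicle in either genotype.

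Of 12 further specific and gelatinase granule genes 11 were called higher and 0 lower (all genes 6.21% and 1.19%), with Adam8, a membrane protease, at 4.35 ± 0.62 and Itgb2l, an integrin subunit, at 5.82 ± 0.87 (SE). Fcnb, which is in this list but was read above among genes of early granulocytes, was not called (5.46, edgeR adjusted p = 0.0879). This list shares Hp with the next one, and Cybb and Cyba with the oxidase. Of 7 further azurophil and promyelocyte genes 3 were called higher and 0 lower: Hp (5.40 ± 0.94), Ctsg (6.57 ± 1.39) and Elane (6.74 ± 1.62, SE). Hp is stored in specific granules, so the 2 azurophil proteases carry this count. Of 7 regulators of granulocyte formation 4 were called higher and 0 lower, namely Cebpb (3.80 ± 0.44), Myb (6.00 ± 1.08), Cebpd (1.37 ± 0.33) and Cebpe (3.73 ± 0.78, SE), the C/EBP factor that drives specific granule genes. Cebpd, named here after its values were seen, was also lower in PTX than in vehicle libraries in fl/fl (-1.80 ± 0.46, SE).

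Of 13 receptors, binding partners and inhibitors of the members' proteins, 1 was called higher between the PTX dates and 0 lower, near the 6.21% and 1.19% of all genes: Slpi, an inhibitor of neutrophil proteases that neutrophils also make (4.95 ± 0.84, SE). Against vehicle, Cd36, a scavenger receptor, was lower in PTX libraries in CKO (log2 -3.71 ± 0.85) and in fl/fl (-4.65 ± 0.89, SE). Serpina3n, a serine protease inhibitor, was higher in CKO (2.37 ± 0.50) and in fl/fl (1.99 ± 0.49, SE). The edgeR adjusted p of these 4 values ran from 0.00973 to 0.0295. Timp3, an inhibitor of metalloproteinases named here after its value was seen, was also lower in fl/fl (-1.92 ± 0.45, SE). So 2 of the 13 were called in CKO, 1 in each direction (all genes 2.22% higher and 0.359% lower), and 3 in fl/fl, 1 higher and 2 lower (3.2% and 1.76%). Of 4 neutrophil attractants with enough counts, Cxcl2, a ligand of Cxcr2, rose between the PTX dates (4.64 ± 0.75, SE), at 182 CPM on average on 25 September and 9.07 CPM on 24 September. Cxcl12, the ligand of Cxcr4, was lower in PTX than in vehicle libraries in fl/fl (-3.75 ± 0.87, edgeR adjusted p = 0.0215). It was not called in CKO (-2.02 ± 0.81, edgeR adjusted p = 0.177).

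Markers of other cells moved with the PTX dates too, where 6.21% of all genes were called higher and 1.19% lower. Of 6 tested markers of eosinophils, basophils and mast cells 5 were higher on 25 September, with Prg2 at 805 CPM against 21.6 CPM on average. Their sum over 7 genes ran from 478 to 1818 CPM on 25 September and 1.48 to 53.3 CPM on 24 September, with 366 to 2292 CPM in vehicle libraries and Mcpt4 at 0 in all PTX libraries. Of 9 macrophage markers 4 were higher and 0 lower, with the sum at 206 to 536 CPM on 25 September, 16.2 to 52.3 CPM on 24 September and 357 to 2862 CPM in vehicle libraries. Of 10 sensory neuron markers 3 were lower on 25 September and 0 higher. None of the 7 satellite glia or 5 myelinating Schwann cell markers was called between the PTX dates, and 1 of 6 fibroblast markers (Col3a1) was. The B cell markers summed to 0 to 7.99 CPM on 25 September, 0 to 0.703 CPM on 24 September and 0.449 to 17.8 CPM in vehicle libraries. Red cell markers summed to at most 14.03 CPM in any library, with Hba-a1, Hba-a2, Hbb-b1 and Hbb-b2 at 0 in all 16, near-identical copies whose reads unique counting can lose. Of 4 tested platelet markers 0 were called, with a median log2 fold change of 3.98. The platelet sum over 5 genes ran from 30.3 to 95.2 CPM on 25 September and 1.28 to 8.17 CPM on 24 September. In vehicle libraries it ran from 20.9 to 324 CPM. The part of these other cells in the date difference of the neutrophil genes was not tested.

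**Figure D4:**
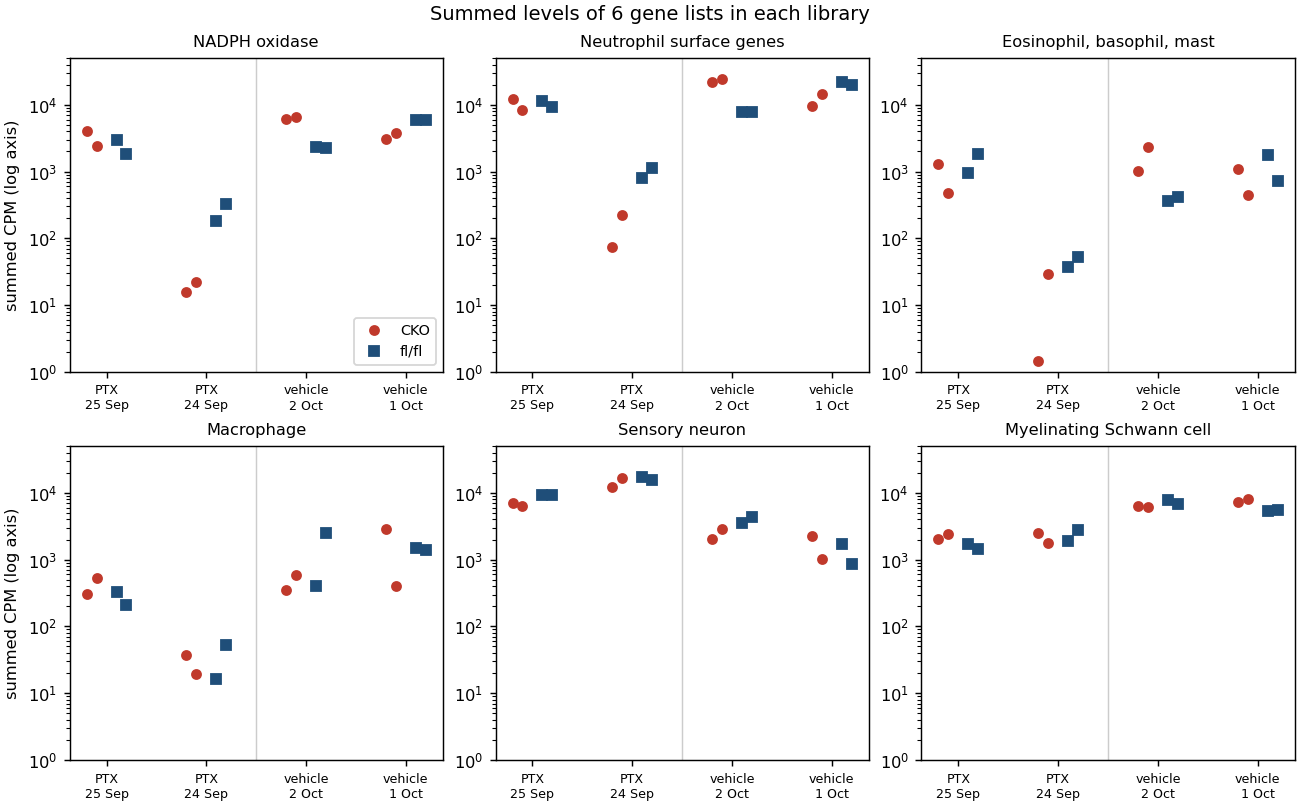
Summed CPM (log axis) of 6 gene lists in each library, by treatment and title date, with CKO as circles and fl/fl as squares. The neutrophil, eosinophil and macrophage lists are lowest in the PTX libraries of 24 September, where the neuron markers are highest, and the Schwann cell list is lower under PTX on both dates.

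Between PTX and vehicle the neuron markers were higher, with 7 of 10 called in CKO (all genes 2.22%) and 9 of 10 in fl/fl (3.2%). The Schwann cell markers were lower, with 3 of 5 called in CKO (all genes 0.359%) and 4 of 5 in fl/fl (1.76%), while the 10 granule and alarmin genes were not called. Fibroblast markers were lower, with 3 of 6 called in CKO and 4 of 6 in fl/fl, against the same shares. Of 7 satellite glia markers 0 were called lower in CKO and 4 in fl/fl. Of 9 macrophage markers 0 were called lower in CKO and 2 in fl/fl, with median log2 fold changes of -2.41 in CKO and -3.65 in fl/fl. The part of these other cells in the treatment values of the neutrophil genes was not tested.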

How the data were processed

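RNA of cells sorted from lumbar dorsal root ganglia was sequenced in 16 libraries (about 500 ng RNA, stranded poly(A) kit, 50-base single ends, per the labels' protocols). Per the submitters' processing notes, the authors used bcl2fastq, TopHat2 on mm9 and HTSeq. Their versions and the strand setting of the counting are not given in the sources used here, so reads of overlapping or antisense genes cannot be told apart. The deposited values are raw counts per gene, without normalization. Lines for unassigned alignments stayed out of library sizes: 13.7 to 25.4% of alignments fell on no feature, 0.262 to 0.423% were ambiguous and 39.5 to 44.2% were not unique.

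Genes were filtered with filterByExpr (14200 kept, all 10 members among them), normalised by TMM and modelled with edgeR 4.0.16 in R 4.3.3 (quasi-likelihood, robust, two-sided, Benjamini-Hochberg over all genes tested, threshold 0.05). The treatment and genotype comparisons used 4 group means (12 residual degrees of freedom), and the date comparisons 4 date means with genotype within treatment (10 residual degrees of freedom). Each standard error is the fold change divided by the root of its F statistic. The steps were tested on simulated data. The members, lists and tests were chosen with earlier results of these data known. Named beyond the members were, per list, up to 3 called genes with the smallest adjusted p, or the 2 most abundant where none was called, and the 5 genes most alike in pattern. Intervals on ratios of counts are exact 95% binomial intervals and those on shares are Wilson intervals, and both cover counting error only.

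Alternatives were RLE, upper-quartile and raw scaling, library sizes without the members, no filter, 5 CPM in 4 libraries, DESeq2 1.42.0, limma 3.58.1 (voom with and without sample quality weights, the second added after seeing the data), leaving out each library or date, a title date covariate, a replicate block and the compared groups alone. A test of genotype by title date was also added after seeing the data. Pairing by replicate number was examined by the correlation of deviations from group means. Under PTX the CKO and fl/fl libraries with the same number gave 0.37, 0.40, 0.39 and 0.22. The numbers also mark the title date, so this check cannot tell pairing from a shared date. A replicate block changed no call of a member. Of the members, 9 matched a RefSeq promoter (GRCm38.p6) by symbol. A gene that the rule for named list genes selects is not reported here.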

Additional observations from a re-analysis of the deposited data

Results flagged for a closer look

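Mpo and Prtn3 each had a library far from the other 3 of its group. In PTX CKO, Mpo was at 2600 CPM in replicate 3, and the next library was at 363 CPM. In PTX fl/fl, replicate 3 was far above the others in Mpo (358 CPM) and in Prtn3 (45.5 CPM). These 3 came from 44 group checks, and they share 2 libraries. For values from a single normal distribution, chance flags about 1 in 20 such checks. Each group here pools an earlier and a later title date, so that rate does not apply. On the CPM scale used, the low PTX fl/fl replicate 4 (0.305 CPM of Mpo) was not flagged.

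The difference between CKO and fl/fl changed with title date. A fit with a mean for each genotype, treatment and date (edgeR, 8 residual degrees of freedom, added after the data were seen) tested it, later date minus earlier. Within PTX, 5 of the 10 genes passed at an adjusted p under 0.05, where 0.507% of all genes did: Lcn2 at log2 4.26, Ngp at 5.06, Ltf at 5.65, Mmp8 at 4.06 and Mmp9 at 4.14. Mpo at 7.35 and Prtn3 at 8.17 had both CKO libraries above the fl/fl libraries on 25 September and below them on 24 September. They did not pass (edgeR adjusted p = 0.664 and 0.736). On 25 September CKO replicate 4 was only slightly above fl/fl replicate 3, at 363 against 358 CPM of Mpo and 55.1 against 45.5 CPM of Prtn3. Within vehicle all 10 genes had both CKO libraries above both fl/fl libraries on 2 October and below them on 1 October. The fitted differences were 2.71 for S100a8, 2.62 for S100a9, 2.07 for Lcn2, 2.59 for Ngp, 2.66 for Camp, 2.56 for Ltf, 2.85 for Mmp8, 2.31 for Mmp9, 2.55 for Mpo and 2.55 for Prtn3. Of these only Mmp9 passed (edgeR adjusted p = 0.0442), where 1.14% of all genes did. With 2 libraries of a genotype on a date, 1 library can carry much of such a value. How many of all genes split between genotypes in this way was not counted.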

How the results depend on the processing

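The higher call between the PTX dates held for S100a8, S100a9, Lcn2, Ngp, Camp, Ltf, Mmp8 and Mmp9 under all 27 alternatives, and 8 to 10 members were called. Mpo lost the call under 19 of the 27 and Prtn3 gained it under 5. Leaving out single libraries kept 0 members called in the treatment, genotype, interaction and vehicle date comparisons. For PTX against vehicle, the count of 0 became 10 in fl/fl with weighted limma-voom and without the later PTX date. In CKO it became 10 under both and 8 with the date covariate. For CKO against fl/fl under PTX it became 1 without the later PTX date. In PTX against vehicle, signs turned for Mpo and Prtn3 in CKO, uncalled with all libraries, and for no other member. Their log2 values were -7.14 and -6.90 with weighted limma-voom, -4.69 and -4.20 unweighted, -3.10 and -2.50 with the date covariate, -9.70 and -9.98 without the later PTX date, -1.43 and -1.16 with the replicate block, and -2.24 and -1.74 without PTX CKO replicate 3. Prtn3 was at -0.018 without the earlier vehicle date. Leaving out single libraries gave -2.24 to 0.78 for Mpo and -1.74 to 0.84 for Prtn3. For CKO against fl/fl under PTX they were at -2.0 and -1.99 with weighted limma-voom and -4.31 and -5.35 without the later PTX date, and Mpo was at -0.19 with the date covariate, while the median of the members ran from -4.03 to 1.25 over the alternatives. The replicate block called 0 members in the treatment, genotype and interaction comparisons. Outside the PTX genotype comparison, libraries with the same number did not deviate together (correlations -0.18 to 0.08), and the date comparisons share no replicate numbers. The compared groups alone could not be tried for the interaction, which uses all 4. Leaving out single libraries gave early-to-late log2 differences of -1.49 to 2.09 between the PTX dates, -4.10 to -1.28 for PTX against vehicle in fl/fl and -0.42 to 1.00 in CKO. The cause of these changes was not tested. Counts over all genes moved by more than 1.5 times. With DESeq2, 1517 genes were called for treatment in fl/fl, against 704 by edgeR, 1341 against 366 in CKO, and 1781 against 1051 between the PTX dates. With the replicate block they were 361 in fl/fl and 126 in CKO, with weighted limma-voom 5283 and 2686, with the date covariate 1500 and 1798, without the later PTX date 1923 and 2077, and without the earlier one 4 and 0. Dropping the earlier vehicle date gave 47 in fl/fl, while CKO stayed within 1.5 times, at 275. Unweighted limma-voom called 1298 in fl/fl and 766 in CKO, and the compared groups alone gave 159 in CKO. Between the PTX dates, weighted limma-voom called 2981. Leaving out single libraries gave 177 to 845 in fl/fl, 30 to 549 in CKO and 639 to 1168 between the PTX dates. Raw library sizes moved the median of all genes for treatment in CKO to 0.22, against 0.02 with TMM. Depth limits Mpo, with 9 counts or fewer in 3 PTX libraries, and Prtn3, with 2 or fewer in 4.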
